A study of Sus scrofa with 9 samples.

Results

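The genes described here encode angiogenic and trophic growth factors and their receptors, and the measurement is 5-hydroxymethylcytosine (5hmC) over their exons in mesenchymal stem/stromal cells (MSCs) grown from pig fat. They were taken by gene symbol, a rule that uses no measured value, and comprise the FGF family and its receptors, the VEGF and PDGF ligands and receptors, angiopoietins with the TIE receptors, and HGF, IGF and KIT ligands with theirs. This rule found 51 of the 18933 genes in the table of Obese- and Lean-MSCs and 51 of the 18992 genes in the table of vitamin-C-treated and untreated Obese-MSCs. Of the 52 genes in all, 50 were in both tables, FGF3 was in the first alone and FGF4 in the second alone, and PDGFB was not analysed here. The rule also took FGFR1OP and FGFR1OP2, which are named after their fusions with FGFR1 and encode no receptor.

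The libraries came from 3 groups of 3. Lean-MSCs were from female domestic pigs on standard chow, and Obese-MSCs from pigs on a high-fat and high-fructose diet for 16 weeks. The last group was Obese-MSCs given vitamin-C at 50 µg/mL for 48 h. Vitamin-C helps the TET enzymes convert methylated cytosine to 5hmC. All cells were isolated from subcutaneous abdominal fat and expanded in the same medium with platelet lysate, itself a source of growth factors, so the diet had ended before the cells were expanded. The study states that this medium already contains some vitamin-C, as ascorbic acid phosphate, and that the vitamin-C effect may therefore be underestimated. Cells described below as without vitamin-C had none added beyond the medium. Libraries keep the numbers of their labels: Obese 1, 2 and 3, Treated 4, 5 and 6, and Lean 7, 8 and 9. The study grew Obese-MSCs with and without vitamin-C, but the labels do not match treated to untreated cultures. The tests therefore treat these libraries as unpaired, and differences within pigs were not tested.

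New vessels form when endothelial cells respond to secreted ligands through receptor tyrosine kinases on their surface. VEGFA acts through KDR and is bound by FLT1, angiopoietin-1 activates the receptor TEK (TIE2) and stabilises vessels, and angiopoietin-2 can oppose it. PDGF receptors mark and drive stromal and perivascular cells, while HGF, IGF and FGF ligands support growth and survival of many cell types. MSCs are known for releasing several of these ligands. In this assay, an antibody pulls down DNA fragments that bear 5hmC, and these are sequenced. A value is therefore an amount of the mark over a gene's exons, in normalized read counts, and not an amount of its mRNA or protein. It grows with the length of the exons, which was not available here, so genes are compared between groups and not with each other.

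Totals per library ranged from 494566 to 522269 normalized counts for Obese- and Lean-MSCs, and from 547242 to 593846 for treated and untreated cells. The genes described here held 0.401% to 0.517% of a library's total in the first table and 0.418% to 0.516% in the other. The list of MSC surface markers (6 genes) holds NT5E, THY1 and ENG, which the study names as MSC markers, and CD44, ALCAM and ITGB1. CD44 alone had 176 to 194 normalized counts in Obese and 152 to 211 in Lean libraries. The whole list summed to 329 to 380 normalized counts in Obese and 282 to 364 in Lean libraries. The corresponding ranges were 152 to 211 and 191 to 217 for the 7 leukocyte and haematopoietic markers, 224 to 257 and 183 to 245 for 7 endothelial markers, 136 to 148 and 123 to 161 for 6 adipocyte markers, and 149 to 221 and 136 to 181 for 7 pericyte and smooth muscle markers. No marker in these lists was at 3 normalized counts or less in every library, although CD14 was listed at 0 in all Lean libraries and reached 4.49 normalized counts in Obese 3 alone. No background level of the pull-down was measured here. A different mix of cells and a different amount of 5hmC per cell cannot be told apart in these values.

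In Obese- versus Lean-MSCs, ANGPT2 and HGF had higher 5hmC and TEK and FGF17 lower 5hmC by the study's criteria, that is, the mean in one group was 1.4 times that in the other or more (or 0.7 times or less) and a two-sided test with equal variances gave an unadjusted p-value of 0.05 or less. These 4 genes of 51 (7.84%) stand beside 4.5% of all 18933 genes called by the same criteria, 2.07% as high and 2.43% as low. With so few genes called, this share is not far from the background, and with unequal variances only TEK and FGF17 of the 4 were called. The groups did not overlap for 5 of the 51 genes (9.8%), namely these 4 and FGF3, against 11.8% of all genes, and FGF3, ANGPT2 and HGF were the higher ones (5.7% of all genes) and TEK and FGF17 the lower (6.06%). Among the 39 genes with a mean above 3 normalized counts in both groups, 22 were higher and 17 lower in Obese-MSCs, and the median log2 ratio was 0.04, against 0.01 over 15177 genes with such means. The median of the growth factor genes was -0.06 without Obese 1, and the highest value with a library left out was 0.11. With limma on log2(value + 1), none of the 40 genes tested passed a Benjamini-Hochberg adjusted p-value of 0.05, and the smallest limma adjusted p among them was 0.583. At an unadjusted limma p of 0.05 or less there were 6 genes (15%), namely ANGPT2, HGF, VEGFA, FLT1 and PDGFRB as higher and TEK as lower, against 6.81% of all genes tested (3.2% higher and 3.61% lower). This number was 1 (ANGPT2) without Obese 1, 3 without Obese 3 and 2 without Lean 7.

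**Figure D1:**
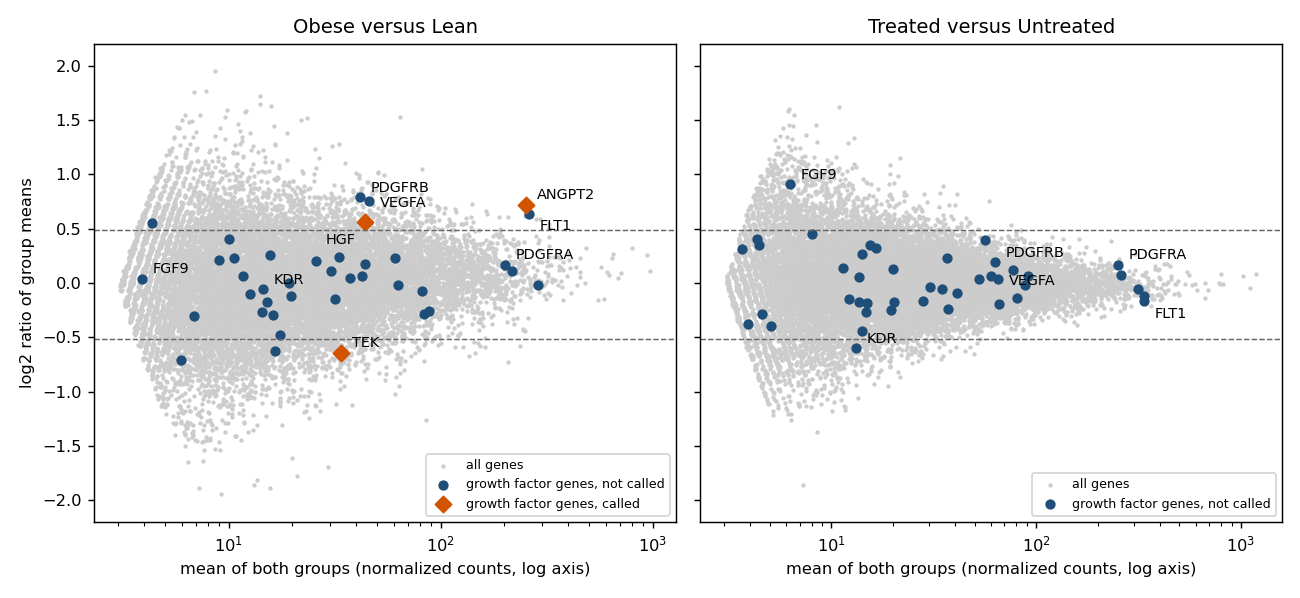
Mean 5hmC of both groups (x axis, normalized counts, log axis) against the log2 ratio of group means (y axis) for genes with a mean above 3 normalized counts in both groups, with dashed lines at ratios of 1.4 and 0.7. In Obese versus Lean (left), ANGPT2, HGF and TEK are the called growth factor genes (orange diamonds), and in Treated versus Untreated (right) no growth factor gene was called.

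Of the 5 angiopoietin and TIE receptor genes, ANGPT2 was called as higher and TEK as lower in Obese-MSCs, and the other genes had overlapping groups. ANGPT2, on chromosome 15 from 37544177 to 37600925 in Sscrofa11.1, encodes the angiopoietin released by endothelial cells when vessels are remodelled. It had 301, 267 and 379 normalized counts in Obese 1, 2 and 3 and 183, 203 and 189 in Lean 7, 8 and 9. All Obese libraries were above all Lean libraries, and the Lean libraries lay close together. The means were 315 ± 57.1 and 192 ± 9.93 (SD, n = 3 each), so that ANGPT2 was 1.65-fold higher in Obese-MSCs. Limma gave a log2 difference of 0.70 ± 0.17 (SE), an unadjusted p of 0.000688 and an adjusted p of 0.583. Leaving out single libraries moved the log2 ratio of means, 0.72, to values from 0.57 to 0.83, although the criteria were no longer met without Obese 1 (0.75), Lean 7 (0.69), Lean 8 (0.76) or Lean 9 (0.71).

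TEK, the receptor for the angiopoietins, lies on chromosome 1 from 195938177 to 196052294. Obese 1, 2 and 3 held 23.1, 31.4 and 24.8 normalized counts of TEK, and Lean 7, 8 and 9 held 42.9, 37.7 and 43.1, again without overlap but with the Obese libraries below. The means were 26.4 ± 4.35 and 41.3 ± 3.06 (SD, n = 3 each), 1.56-fold lower in Obese-MSCs. Limma gave a log2 difference of -0.63 ± 0.26 (SE), an unadjusted p of 0.0235 and an adjusted p of 0.694. TEK met the criteria with each library left out in turn, with a log2 ratio between -0.78 and -0.56. TIE1, the related receptor that modulates TEK, had 37.9 ± 3.74 normalized counts in Obese- and 36.8 ± 6.11 in Lean-MSCs, ANGPT1 had 79.9 ± 16.4 and 84.2 ± 17.9, and ANGPT4 had 11.5 ± 2.42 and 9.78 ± 0.475 (SD, n = 3 each).

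**Figure D2:**
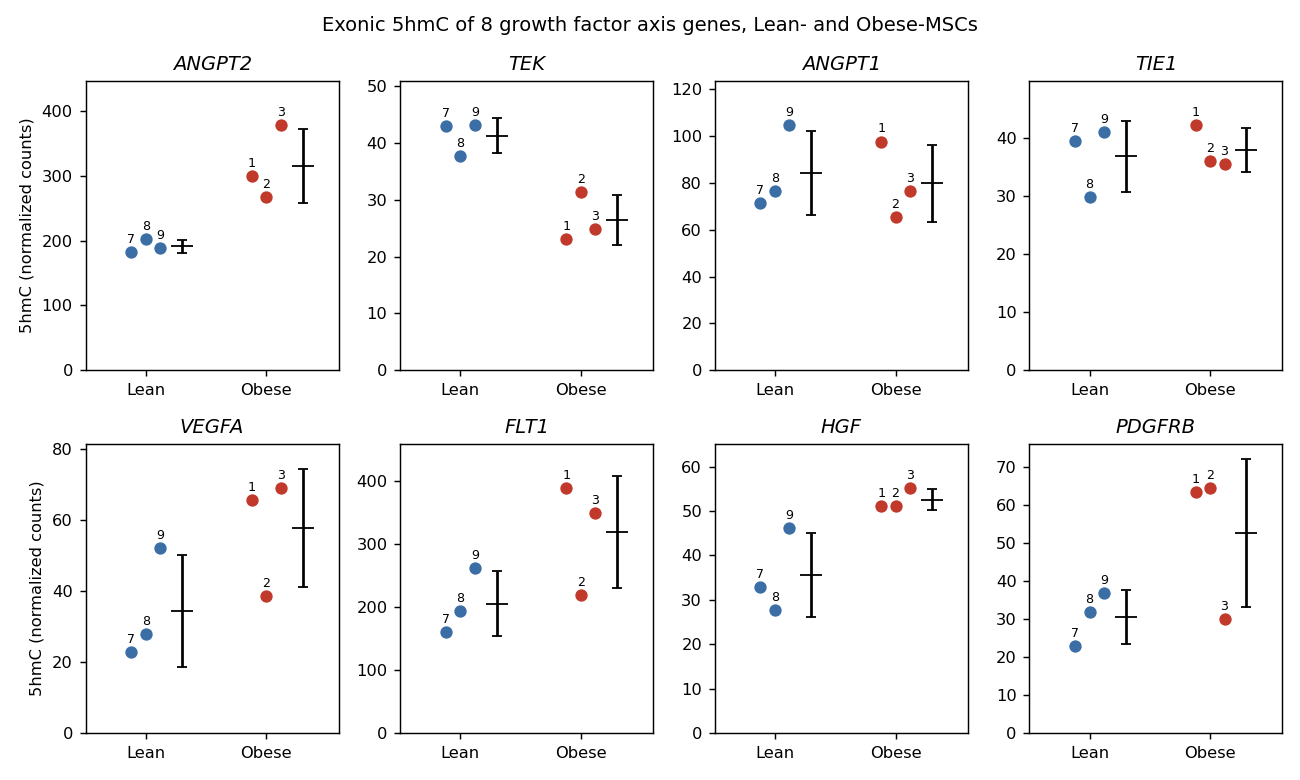
Exonic 5hmC in normalized counts (y axis, from 0) of 8 genes in Lean-MSCs (blue, libraries 7 to 9) and Obese-MSCs (red, libraries 1 to 3), with the mean and SD in black beside the points. The groups are apart for ANGPT2, TEK and HGF, and overlap for ANGPT1, TIE1, VEGFA, FLT1 and PDGFRB.

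Among the VEGF genes, the ligand VEGFA and the receptor FLT1 had higher means in Obese-MSCs but overlapping groups, and neither met the criteria. VEGFA, on chromosome 7 from 38746393 to 38762282, encodes the principal inducer of endothelial growth. Obese libraries had 65.6, 38.7 and 69.1 and Lean libraries 22.9, 27.8 and 52.3 normalized counts, so that Lean 9 lay above Obese 2. The means were 57.8 ± 16.6 and 34.3 ± 15.7 (SD, n = 3 each) and the limma log2 difference was 0.78 ± 0.31 (SE), with an unadjusted p of 0.0205 and an adjusted p of 0.684. FLT1 (chromosome 11, from 5620698 to 5797095) encodes VEGF receptor 1, and showed 389, 219 and 348 normalized counts in Obese against 160, 194 and 262 in Lean libraries. Its Obese values were again high in Obese 1 and 3 and within the Lean range in Obese 2, and without that library FLT1 met the criteria with a log2 ratio of 0.85 in place of 0.64. Limma gave FLT1 a log2 difference of 0.62 ± 0.22 (SE), an unadjusted p of 0.0102 and an adjusted p of 0.668.

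KDR, the main signalling receptor for VEGFA in endothelial cells, had 11.4, 18.1 and 13.0 normalized counts in the Obese and 16.9, 10.9 and 16.4 in the Lean libraries. The limma log2 difference of KDR was -0.05, with a 95% interval from -0.73 to 0.63. The lymphatic ligands VEGFC and VEGFD and their receptor FLT4 had log2 ratios of 0.17, -0.10 and -0.12. VEGFB had 3.98 normalized counts or less in 5 of the 6 libraries and 6.74 in Obese 3.

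HGF, the hepatocyte growth factor gene on chromosome 9 from 98437771 to 98513573, encodes a ligand that stromal cells secrete and that acts through the receptor MET. Normalized counts of HGF were 51.2, 51.2 and 55.2 in Obese 1, 2 and 3 and 32.9, 27.8 and 46.2 in Lean 7, 8 and 9. The groups did not overlap, and the Obese libraries spanned a narrower range than the Lean. With means of 52.6 ± 2.33 and 35.6 ± 9.48 (SD, n = 3 each) HGF was 1.48-fold higher in Obese-MSCs, at an unadjusted limma p of 0.0343 and an adjusted limma p of 0.704. The criteria were met without Lean 9 but not without Obese 1 (log2 ratio 0.58), Obese 2 (0.58), Obese 3 (0.52), Lean 7 (0.51) or Lean 8 (0.41). MET had 24.3, 40.8 and 43.3 normalized counts in the Obese and 36.0, 24.8 and 30.8 in the Lean libraries, with a limma log2 difference of 0.21 and a 95% interval from -0.39 to 0.80.

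PDGFRB, which encodes the PDGF receptor of pericytes and stromal cells, had the highest log2 ratio of the genes with a mean above 3 in both groups, 0.79, without meeting the criteria. The gene is on chromosome 2 from 151155753 to 151192818, and its values were 63.4, 64.6 and 30.1 normalized counts in the Obese and 22.8, 31.8 and 36.9 in the Lean libraries. Obese 1 and 2 were above all Lean libraries and Obese 3 was among them. The limma log2 difference was 0.72 ± 0.30 (SE), with an unadjusted p of 0.0294 and an adjusted p of 0.703, and without Obese 3 the gene met the criteria with a log2 ratio of 1.07. Of the pericyte and smooth muscle markers, CSPG4 had 15.1, 34.3 and 15.6 normalized counts in the Obese and 3.54, 8.94 and 7.19 in the Lean libraries, without overlap but without meeting the criteria. NOTCH3, in contrast, was lower without overlap, with means of 22.6 and 30.6, RGS5, MCAM, ACTA2, TAGLN and MYH11 overlapped, and 0 of the 7 markers were called (median log2 ratio 0.11). The part of such cells in the values of PDGFRB was not tested.

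PDGFRA, the receptor that marks adipose stromal progenitors, varied more among the Obese libraries than between the diets. Its values were 351, 106 and 179 normalized counts in the Obese and 228, 160 and 178 in the Lean libraries, a coefficient of variation of 59.3% against 18.8%. Over the 39 genes with means above 3, the median coefficient of variation was 25.0% in Obese libraries, against 25.7% over all such genes. The ligand genes PDGFA, PDGFC and PDGFD had log2 ratios of -0.31, 0.23 and 0.22 with overlapping groups, and PDGFA had only 6.12 ± 2.12 and 7.57 ± 4.19 normalized counts (SD, n = 3 each).

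KIT, the stem cell factor receptor, had 86.6, 94.0 and 45.4 normalized counts in the Obese and 109, 83.4 and 83.2 in the Lean libraries, and Obese 3 stood below the others. Its ligand gene KITLG had 209, 261 and 209 against 232, 214 and 181. The limma 95% intervals of the log2 difference were -0.88 to 0.20 for KIT and -0.26 to 0.48 for KITLG.

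The insulin-like growth factor genes differed little in mean. IGF1 had 80.8, 78.7 and 81.2 normalized counts in the Obese and 126, 86.4 and 75.0 in the Lean libraries, and its higher Lean mean came from Lean 7, since the log2 ratio of -0.26 was -0.01 without that library. Its receptor gene IGF1R had 286 ± 36.1 and 289 ± 62.4 normalized counts and the fetal growth factor gene IGF2 had 12.01 ± 2.298 and 11.5 ± 1.34 (SD, n = 3 each). The limma 95% interval of the log2 difference was -0.38 to 0.38 for IGF1R.

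Of the 14 secreted FGF ligands with paracrine action that were measured, FGF17 alone met the criteria, as lower in Obese-MSCs. FGF17, a ligand of early brain patterning, is on chromosome 14 from 6310840 to 6315465. Obese 1, 2 and 3 had 2.29, 2.85 and 2.38 and Lean 7, 8 and 9 had 4.52, 3.97 and 4.11 normalized counts of it. The groups did not overlap, but every Obese library was at 3 normalized counts or less, so the gene was at least 1.4-fold lower against a floor of 3 per library. Its mean was too low for the main limma fit. In the fit with no filter on low values, which tested 51 growth factor genes, FGF17 did not reach an unadjusted limma p of 0.05. FGF17 met the criteria with each library left out in turn. FGF2, a potent angiogenic ligand, had 22.1, 37.1 and 31.7 normalized counts in the Obese and 31.7, 30.8 and 38.0 in the Lean libraries, a log2 ratio of -0.14.

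FGF18, a ligand of cartilage and bone growth, had among the lowest log2 ratios with -0.63, on values of 14.1, 14.2 and 10.7 in the Obese and 25.8, 8.92 and 25.6 normalized counts in the Lean libraries. Lean 8 lay below all Obese libraries, and without it FGF18 met the criteria with a log2 ratio of -0.98. The remaining paracrine ligands with means above 3 in both groups, FGF1, FGF6, FGF7, FGF9, FGF10 and FGF16, had log2 ratios from -0.48 for FGF6 to 0.55 for FGF16 and overlapping groups. FGF5, which holds hair growth in check, and FGF22, of synapse formation, had a group mean of 3 or less, at 1.91 and 2.40 normalized counts in Obese-MSCs.

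FGF12, FGF13 and FGF14 encode homologous factors that stay in the cell and bind sodium channels. FGF12 had the lowest log2 ratio of the genes with means above 3 in both groups, -0.71, on 2.11, 5.71 and 5.80 normalized counts in the Obese and 10.0, 3.96 and 8.21 in the Lean libraries, which overlapped. FGF13 and FGF14 had log2 ratios of 0.00 and 0.07. The receptors FGFR1, FGFR2 and FGFR4 had log2 ratios of 0.20, -0.17 and -0.26, and FGFR1 had 36.3, 16.9 and 29.4 normalized counts in the Obese and 31.4, 15.9 and 24.6 in the Lean libraries. FGFR3 ranged from 0.899 to 5.72 normalized counts. FGFR1OP and FGFR1OP2 had log2 ratios of 0.41 and 0.26, and FGFR1OP2 met the criteria as high without Lean 7. The endocrine ligands FGF19, FGF21 and FGF23, which act on bile acid, glucose and phosphate balance, each had at least 1 group mean of 3 or less, with 7.17 normalized counts as their highest value.

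The mark was barely measured on 4 genes, none of which exceeded 3 normalized counts in any Obese or Lean library. These were the embryonic ligand genes FGF3, FGF8 and FGF20 and the intracellular FGF11. FGF3 was listed at 0 in all Lean libraries and had at most 0.952 in an Obese library, and no fold is given for these genes.

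**Figure D3:**
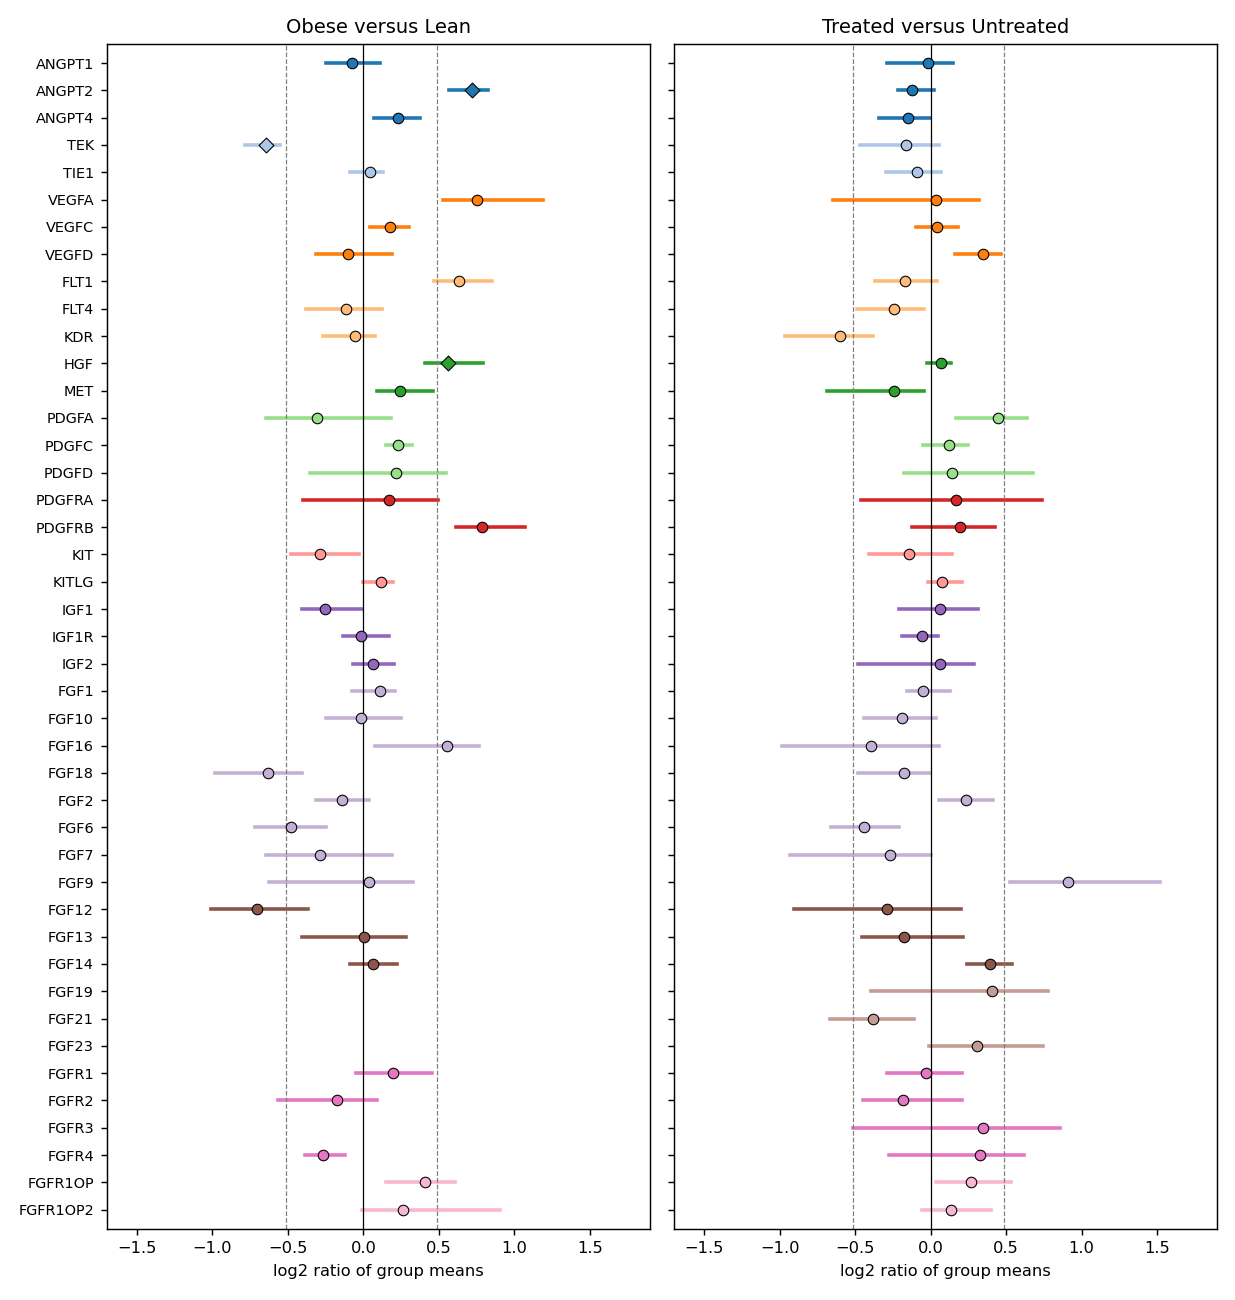
Log2 ratio of group means (x axis) of each gene with a mean above 3 normalized counts in both groups of a comparison, with colours for the roles (angiopoietins, TIE receptors, VEGF, HGF, PDGF, KIT, IGF and FGF genes from the top). Lines run from the lowest to the highest ratio with 1 library left out, diamonds mark called genes and dashed lines ratios of 1.4 and 0.7. ANGPT2, TEK and HGF are called on the left, and no gene on the right.

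Other genes of these pathways were examined from lists of co-receptors, binding proteins, adaptors and inhibitors. Of 101 such genes found, 2 met the criteria as high and 0 as low in Obese-MSCs (4.5% of all genes met them in either direction), and the median log2 ratio of the 87 with means above 3 in both groups was 0.11. FES, a cytoplasmic tyrosine kinase that acts downstream of KIT, had 20.9, 21.8 and 24.6 normalized counts in the Obese and 6.98, 12.9 and 14.4 in the Lean libraries, a clear gap between the groups and a ratio of 1.97. FGFBP3, which encodes a carrier that releases FGFs from the matrix, had 3.92, 2.83 and 3.54 against 2.24, 1.99 and 1.04, all low values. IRS1, the adaptor of the insulin and IGF1 receptors, had groups that did not overlap, with 190, 129 and 209 normalized counts in the Obese and 112, 86.4 and 120 in the Lean libraries, and did not meet the criteria. At an unadjusted limma p of 0.05 or less there were 3 higher genes of 87 tested, FGFBP1, FES and IRS1, and 1 lower, SPRY3, an inhibitor of receptor signalling. These shares are near or below the 3.2% higher and 3.61% lower of all genes tested, and 0 passed the limma adjusted p of 0.05.

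By list, the median log2 ratio over genes with a mean above 3 in both groups was 0.20 for FGF partners (17 genes of 19 found), 0.16 for VEGF partners (14 of 14), -0.02 for TIE partners (10 of 11), 0.17 for PDGF and KIT partners (9 of 10), 0.31 for HGF partners (4 of 8), -0.18 for IGF partners (15 of 18), 0.03 for shared receptor adaptors (13 of 14) and 0.12 for angiogenesis inhibitors (6 of 8). The other HGF partners, HGFAC, ST14, SPINT1 and SPINT2, had Lean means of 3 or less and log2 ratios from 1.06 to 1.87, with overlapping groups. The limit of 3 also left out the inhibitor genes COL18A1 and CHGA and the adaptor gene SHC2. COL18A1 had 4.51, 4.71 and 9.19 normalized counts in the Obese and 0.04, 3.98 and 0.01 in the Lean libraries. COL18A1 and SHC2 (ratio 2.08) were higher without overlap but not called, and CHGA overlapped at a log2 ratio of -0.84. Groups did not overlap for 11.8% of all genes. No list held more than 1 gene that met the criteria. Of the marker lists, only CD3E, a T cell gene, met the criteria, with lower values in Obese- (29.6 ± 7.00 normalized counts) than Lean-MSCs (49.5 ± 2.79, SD, n = 3 each). The endothelial list, which covers the cells in which TEK, FLT1 and ANGPT2 are known to act, had a median log2 ratio of 0.14 and 0 called genes, and the part of endothelial cells in the values of these genes was not tested.

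With vitamin-C, none of the 51 genes met the criteria in Treated versus Untreated Obese-MSCs. Over all 18992 genes 1.92% met them (1.11% as high and 0.806% as low), so a count of 0 in 51 lies close to the background. The Treated and Untreated libraries overlapped for every one of the 51 genes, whereas they did not overlap for 5.91% of all genes (3.24% higher and 2.67% lower with vitamin-C). In limma, 0 of 41 genes tested had an unadjusted p of 0.05 or less, against 0.974% of all genes (0.559% higher and 0.415% lower), and 0 passed the adjusted p. Whatever the p, the ratio was at least 1.4 for 6 of the 51 genes (12.9% of all genes) and at most 0.7 for 2 (8.8%), whereas in Obese versus Lean these numbers were 11 (15.9%) and 7 (13.5%). These counts include FGF4, FGF8, FGF20 and FGF11 with vitamin-C and FGF3, FGF8 and FGF20 between the diets, which did not exceed 3 normalized counts in any library. Among 43 genes with means above 3 in both groups, 21 were higher and 22 lower with vitamin-C, with a median log2 ratio of -0.02 (0.05 without Treated 6 and 0.055 without Untreated 1) against 0.00 for all such genes. When single libraries were left out, FGF11 met the criteria as low without Treated 6, and FGF5 as high and FGF6 as low (log2 ratio -0.66) without Untreated 2. In limma, KDR had an unadjusted p of 0.05 or less without Treated 4, and FGF9 without Untreated 3. The untreated libraries are those compared with Lean-MSCs above, but normalized again with the treated ones, at median ratios between 1.10 and 1.13 to their values in the first table.

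The growth factor genes called between the diets had overlapping groups with and without vitamin-C. ANGPT2 had 319, 287 and 363 normalized counts in Treated 4, 5 and 6 and 334, 303 and 416 in Untreated 1, 2 and 3. The limma log2 difference was -0.11 with a 95% interval from -0.52 to 0.29. TEK had 36.2, 25.0 and 17.7 with vitamin-C and 25.8, 35.3 and 27.3 without, so that treated libraries lay on both sides of the untreated range, and its limma interval ran from -0.87 to 0.47. HGF had 68.4, 55.5 and 59.9 normalized counts with vitamin-C and 56.99, 57.9 and 60.8 without. The 95% interval for HGF was -0.45 to 0.57 on the limma log2 scale. FGF17 had 1.01, 2.77 and 4.55 normalized counts with vitamin-C against 2.57, 3.21 and 2.63.

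**Figure D4:**
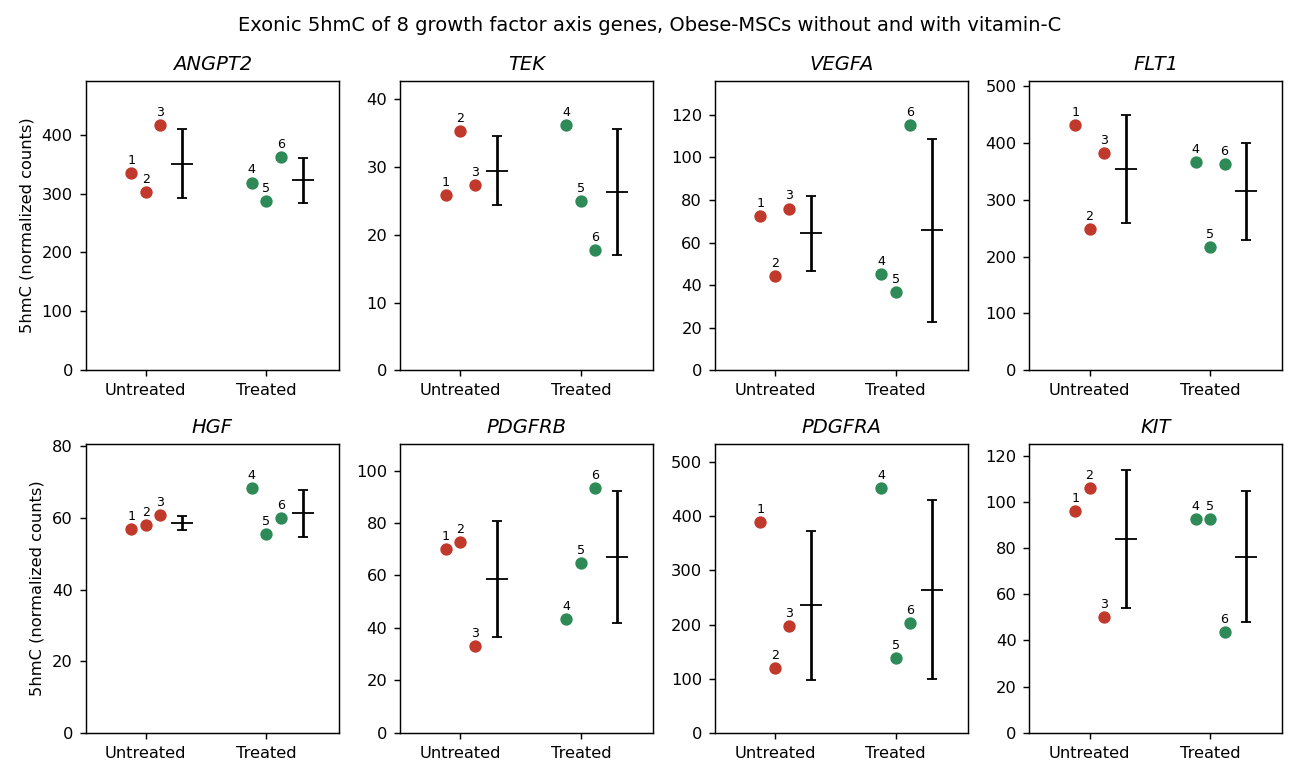
Exonic 5hmC in normalized counts (y axis, from 0) of 8 genes in untreated Obese-MSCs (red, libraries 1 to 3) and vitamin-C-treated Obese-MSCs (green, libraries 4 to 6), with the mean and SD in black beside the points. Groups overlap for every gene, and PDGFRA and KIT range as widely within the untreated as within the treated libraries.

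VEGFA had treated libraries far apart, with 45.3, 36.8 and 115 normalized counts against 72.7, 44.1 and 76.0 without vitamin-C. Its log2 ratio of 0.03 was -0.65 without Treated 6. FLT1 had 366, 216 and 363 with vitamin-C and 431, 248 and 383 without. KDR had the lowest log2 ratio of the genes with means above 3, -0.60, on 15.1, 8.28 and 7.97 normalized counts with vitamin-C and 12.8, 20.3 and 14.4 without, at an unadjusted limma p of 0.126. All of the VEGF receptor genes had lower means with vitamin-C, and FLT4 had a log2 ratio of -0.25.

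Among the PDGF and KIT genes, PDGFRA had 453, 139 and 203 normalized counts with vitamin-C and 389, 120 and 197 without, so each group held 1 library far above the others. The coefficient of variation of PDGFRA was 62.7% in treated and 58.7% in untreated libraries, and its limma interval for the log2 difference, -0.70 to 1.01, was wide. KIT had 92.5, 92.7 and 43.5 against 96.0, 106 and 50.0, with 1 low library in each group. PDGFRB had 43.3, 64.8 and 93.4 normalized counts with vitamin-C and 70.2, 72.8 and 33.2 without. KITLG had 297, 287 and 212 against 232, 295 and 229, and the ligand gene PDGFA had 7.05, 8.30 and 12.6 against 7.81, 8.54 and 4.16, a log2 ratio of 0.45.

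The remaining genes named for both comparisons had limma intervals that included 0. These were ANGPT1 (-0.60 to 0.52), IGF1 (-0.59 to 0.58), IGF1R (-0.46 to 0.34), IGF2 (-0.85 to 0.77), FGF2 (-0.34 to 0.85) and FGFR1 (-0.70 to 0.69). The mean of MET was 34.1 ± 15.6 normalized counts with vitamin-C and 40.3 ± 11.2 without (SD, n = 3 each), with overlapping groups. IGF1 had nearly equal values in the untreated libraries, 89.9, 89.0 and 89.3 normalized counts, and 96.6, 126 and 57.9 in the treated ones. FGF2 had 39.2, 43.6 and 36.6 normalized counts with vitamin-C against 24.8, 41.7 and 34.9.

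Of the FGF ligands, FGF9 had the highest log2 ratio among genes with means above 3, 0.91, on 12.1, 5.48 and 7.11 normalized counts with vitamin-C and 2.49, 3.25 and 7.41 without. Its groups overlapped, and the unadjusted limma p was 0.115. FGF5 had 4.03, 4.62 and 5.39 against 0.786, 4.22 and 1.397, and FGF22 had 4.03, 4.603 and 7.24 against 4.41, 2.17 and 1.45, both with an untreated mean under 3. FGF19 had 2.02, 3.66 and 9.13 with vitamin-C against 4.34, 5.32 and 1.53. At the low end were FGF6, a ligand of muscle, with 13.1, 11.08 and 11.6 against 20.9, 10.8 and 16.8, and FGF16 with 4.03, 1.78 and 7.29 against 8.79, 4.33 and 4.08.

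FGF4, FGF8, FGF11 and FGF20 did not exceed 3 normalized counts in any treated or untreated library. Of the 101 partner genes, 0 were called as high and 1 as low with vitamin-C, the adaptor gene SHC2, with 1.01, 2.79 and 2.70 normalized counts against 5.19, 4.31 and 5.17 without. This count is near or below the 1.92% of all genes called. All treated values of SHC2 were under 3 and the mean was too low for limma. In Obese versus Lean SHC2 was higher without overlap, at 4.68, 3.78 and 4.70 against 3.33, 2.98 and 0.01, but not called. FGFBP3, called as high in Obese-MSCs, had 3.02, 1.82 and 2.68 with vitamin-C and 4.34, 3.24 and 3.90 without, apart but not called. FES, the other partner gene called there, overlapped. The values of SHC2 and FGFBP3 are low. Both comparisons share the untreated libraries, so these directions are not independent. The median log2 ratio of partner genes with means above 3 was 0.00, and the medians of the single lists lay between -0.13 for HGF partners and 0.02. The endothelial markers summed to 217 to 241 normalized counts in treated and 254 to 285 in untreated libraries, with a median log2 ratio of -0.28 and 0 called genes, and the other marker lists held 0 called genes too. PECAM1 weighs most in these sums, with means of 122 with vitamin-C and 155 without. CDH5, ESAM, ERG and ROBO4 also had lower means with vitamin-C. EMCN (7.60 against 3.70) and VWF (38.8 against 37.4) had higher means. The part of endothelial cells in the lower means of the VEGF receptor genes was not tested.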

How the data were processed

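hMeDIP-seq libraries of swine MSCs were used, 3 each of Lean, untreated Obese and vitamin-C-treated Obese cells. The authors aligned paired reads with Bowtie2 (2.3.3.1) to the porcine assembly susScr 11.1, removed duplicates with Picard (1.67), counted reads over exons per gene with HTSeq (0.9.1) and processed the counts with edgeR (3.28.1). The deposited values are a signal of fractional normalized counts, in 2 tables normalized separately, so tests were made within a table. In Lean 8, Lean 9 and Treated 4, between 96.1% and 100% of values under 15 lay within 0.05 of whole multiples of a step near 1, and in the other columns 13.9% to 72.9% did, so reads were not recovered, no test for counts was run and the depth in reads is unknown. For treated and untreated cells, 645 values of numerical residue were set to 0.

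Calls used the study's thresholds, recomputed on the deposited values. Its methods name a two-tailed Student's t-test for the vitamin-C comparison. They name the same test for Obese versus Lean, where they describe genes of apoptosis, proliferation and senescence, and it was used here for all genes. For log2(value + 1), limma (3.58.1, under R 4.3.3) with its trend option was run on the 80% of genes with the highest means, and p-values were adjusted over these by Benjamini-Hochberg. A pseudocount of 1 understates differences of low genes. Log2 ratios are ratios of group means without a pseudocount, and means of 3 or less were treated as low. For single genes the two-sided exact permutation test over 20 arrangements cannot go below p = 0.1, which ANGPT2, HGF, TEK, FGF17 and FGF3 reached. The procedure was tested on simulated data. Other steps used scipy 1.17.1, pandas 2.3.3, numpy 2.4.6 and matplotlib 3.10.9 under Python 3.11.15. Positions are from RefSeq for Sscrofa11.1, found by symbol for all 52 genes. P-values of the study's test measure the spread between the 3 libraries of each group for that gene. Limma also draws on the variance of other genes, so its p-values can be lower or higher. The study's test gave unadjusted p-values of 0.150 for VEGFA, 0.128 for FLT1 and 0.139 for PDGFRB in Obese versus Lean. For TEK it gave 0.00847, against 0.0235 in limma.

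Genes were named if they met the criteria, had an unadjusted limma p of 0.05 or less, were among the 3 highest or 3 lowest log2 ratios with means above 3, were at 3 or less in every library, belonged to a fixed list of central ligands and receptors, or were partner genes that met the criteria. The remaining members are given briefly. FGFBP1, IRS1, SPRY3, HGFAC, ST14, SPINT1, SPINT2, COL18A1, CHGA and the marker genes were named after their values were seen. The vitamin-C values of FGFBP3 and FES and the diet comparison of SHC2 were also added then. The members and lists were chosen with earlier results of these data known. Alternatives were other variance models, scales, thresholds, filters, pseudocounts and normalizations, and each library left out.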

Additional observations from a re-analysis of the deposited data

How the results depend on the processing

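The number of growth factor genes that met the criteria in Obese- versus Lean-MSCs, 4, was 2 (FGF17 and TEK) with unequal variances and 2 at a p-value threshold of 0.01, and ranged from 2 to 6 when single libraries were left out. It was 3 or 4 under the test on log2 values, ratio limits of 1.5, a limit of 3 on both means, rescaling by median ratio and quantile normalization, and 4 without FGFR1OP and FGFR1OP2, an alternative chosen after seeing the data. TEK and FGF17 were called under each of these except that FGF17 was not under the limit of 3 on both means. With vitamin-C the number was 0 under each alternative on all libraries and between 0 and 2 with a library left out. Leaving out single libraries gave a median log2 ratio from -0.0595 to 0.111 for Obese versus Lean and from -0.0877 to 0.0549 for Treated versus Untreated. No growth factor gene passed the limma adjusted p-value of 0.05 under any alternative in either comparison, and the 6 genes at an unadjusted limma p of 0.05 or less were 2 (ANGPT2 and TEK) without the trend. The cause of these differences was not tested. The labels do not say which treated and untreated libraries share a pig, so no paired analysis was made and the vitamin-C intervals are unpaired. Differences between pigs enter these intervals and the overlap of the groups, so a shift within pigs could be missed. The values are relative within a table, so a change of total 5hmC would not be seen. Genes at a few normalized counts, FGF17 among them, lay below the limma filter. With no filter on low values FGF17 did not reach an unadjusted limma p of 0.05, so its call rests on the study's criteria alone.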

Other observations

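Some of these genes are neighbours in the genome. PDGFRA, KIT and KDR lie in this order on chromosome 8, from 40966568 to 41856379 in Sscrofa11.1, and the order of the libraries differed between them. Obese 3 was lowest for KIT with 45.4 normalized counts but between the other Obese libraries for PDGFRA (179) and KDR (13.0), and Obese 2 was lowest for PDGFRA (106) and highest for KDR (18.1) and KIT (94.0). FGF3, FGF4 and FGF19 lie on chromosome 2 from 3489208 to 3586985 and had low values throughout, with at most 9.13 normalized counts, for FGF19 in Treated 6. FGF6 and FGF23 lie on chromosome 5 from 65975807 to 66038078, and both had lower means in Obese- than in Lean-MSCs, with log2 ratios of -0.48 and -0.84, overlapping groups and no call. The ratio of FGF23 rests on low values, with means of 2.94 normalized counts in Obese- and 5.26 in Lean-MSCs.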
